A study of Mus musculus with 6 samples.

Results

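The immediate early genes examined were Fos, Fosb, Jun, Junb, Jund, Egr1, Ier2, Ier3, Atf3 and Dusp1, 10 of the 8251 genes that the array measured with a probe set naming 1 gene. They were taken as every probe set whose platform gene symbol was one of these names, which gave 15 of the 12422 tested probe sets, with 4 genes read by several probe sets and 6 by 1. Total RNA was measured in embryonic stem cells of the mouse, the pluripotent cells of the early embryo kept in culture, in 2 groups of 3 arrays: cells from HDAC1 knockout embryos and cells from wild-type embryos of the same litter, both untreated. HDAC1, a class I histone deacetylase, is a subunit of several corepressor complexes. The medium of both groups held fetal calf serum, and the labels name 2 culture modes (gelatin with LIF, or feeder cells with no LIF) and do not tie any array to either. Strain, sex and age are not given. The labels call the arrays biological replicates and do not say how the cultures were kept apart, so the spread behind each p-value may be technical in part.

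Immediate early genes are transcribed within minutes of a stimulus such as serum or a growth factor, without new protein synthesis, and their short-lived transcripts are cleared soon after. Signals through the MAP kinases reach their promoters by way of serum response factor with its Elk partners and of CREB and ATF proteins. Fos and Jun proteins pair to form AP-1, Egr1 is a zinc finger factor, and Dusp1 switches the MAP kinases off again. Histone acetylation at these promoters is known to follow such signals, and deacetylases to reverse it.

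Total signal had been scaled to 1 level on all arrays. Hdac1 itself had signals of 118.3, 110.1 and 197.1 in knockout cells, against 2323.4, 2199.7 and 2407.8 in wild-type cells, so the targeted transcript was lower in every array carrying the knockout label (log2 difference -3.92 ± 0.19, limma's standard error, adjusted p = 2.32e-06). The stem cell markers were present in both groups: all 15 listed lay above the background level, with summed signals of 76067 to 77953 in knockout cells and 55621 to 59287 in wild-type cells. At an adjusted p under 0.05 by limma, 8 of the 15 were higher and 0 lower (53.3%, against 4.58% of all genes). The other 7, Pou5f1 among them, had no call, and 3 markers had a log2 difference below 0. Of 24 feeder fibroblast markers 17 lay above background, and their summed signals were 13255 to 13533 in knockout cells and 17663 to 18192 in wild-type cells. Of 14 primitive endoderm markers 10 lay above background, with sums of 6939 to 7707 in knockout cells and 5238 to 6326 in wild-type cells. Only Lama1 was called, with means of 1183.6 in knockout and 496.3 in wild-type cells (1 of 14, 7.14%). Log2 differences were above 0 for 9 endoderm markers and below 0 for 5. Sparc is in both this list and the feeder list. Such sums follow the brightest genes and do not show a shift of every marker. In such bulk RNA, fewer cells of a type and less RNA per cell cannot be told apart.

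The promoters below show part of the DNA through which several of these genes receive their signals. They are the 250 bases upstream of the annotated start site in RefSeq (GRCm38.p6), written 5′ to 3′ on the strand of the gene. Fos is shown as the classical member, Jun as its partner, and Dusp1 as the phosphatase whose arrays did not overlap between the genotypes. Such a lack of overlap held for 20.6% of all probe sets, and Dusp1 was not called (adjusted p = 0.263 by limma). Capitals mark matches on either strand to TGACNTCA, to TGACG or to the TATA element TATAAA. TGACNTCA is the form of site bound by CREB, ATF and Jun proteins, and begins with TGACG where the N is G.
Fos, chr12:85473640-85473889, plus strand: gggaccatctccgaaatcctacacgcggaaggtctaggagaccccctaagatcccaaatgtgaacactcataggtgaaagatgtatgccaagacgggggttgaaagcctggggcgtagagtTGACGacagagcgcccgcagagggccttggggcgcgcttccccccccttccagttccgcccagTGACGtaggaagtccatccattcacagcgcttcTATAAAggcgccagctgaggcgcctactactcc
Jun, chr4:95052223-95052472, minus strand: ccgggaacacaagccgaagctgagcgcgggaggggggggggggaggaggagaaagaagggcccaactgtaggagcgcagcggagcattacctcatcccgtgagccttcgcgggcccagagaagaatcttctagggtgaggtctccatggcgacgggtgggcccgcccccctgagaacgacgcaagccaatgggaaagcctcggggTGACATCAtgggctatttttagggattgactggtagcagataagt
Dusp1, chr17:26508473-26508722, minus strand: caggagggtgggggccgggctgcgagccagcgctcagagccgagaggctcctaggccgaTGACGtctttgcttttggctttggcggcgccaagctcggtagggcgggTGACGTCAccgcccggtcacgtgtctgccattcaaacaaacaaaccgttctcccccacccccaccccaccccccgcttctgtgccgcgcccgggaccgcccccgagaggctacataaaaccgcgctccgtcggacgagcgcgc
TGACG overlaps TGACNTCA where the N is G, and both were counted. Of the 8 members whose windows were searched, 5 held TGACG and 2, Jun and Dusp1, held TGACNTCA, against 17.8% and 7.49% of all 32851 promoter windows of this length. In Dusp1 the full site began 143 bases before the start site, in Jun 45 bases before it. TATAAA was found in Fos alone among the 8, and in 12.4% of all windows. AP-1 sites of the form TGANTCA and CArG boxes, the element of serum response factor, were found in none of the 8 windows and in 6.75% and 1.47% of all windows. These matches describe the letters in the windows only. Sites more than 250 bases upstream were not searched, so a gene without a match here may hold one there. Ier2 and Egr1 were not searched.

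None of the 15 probe sets differed between the genotypes at an adjusted p under 0.05 by limma, where 3.88% of all tested probe sets did. Without adjustment, 3 had p under 0.05 (Ier2, Ier3 and Dusp1), a share to be read against 15.4% of all tested probe sets. Of the 15, 11 had a log2 difference above 0 and 4 below it, with a median of 0.27, while the median of all tested probe sets was -0.04, with 5580 above 0 and 6842 below. These 15 include several probe sets of 1 gene and 4 at background in both genotypes. With the brightest probe set of each gene, 7 lay above 0 and 3 below, with a median of 0.13. The arrays of the genotypes did not overlap for 5 of the 15, all of them higher in knockout cells, against 20.6% of all probe sets in either direction and 9.4% in that one. Of these 5, 1 probe set each of Fos and Egr1 lay at background in both genotypes.

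**Figure D1:**
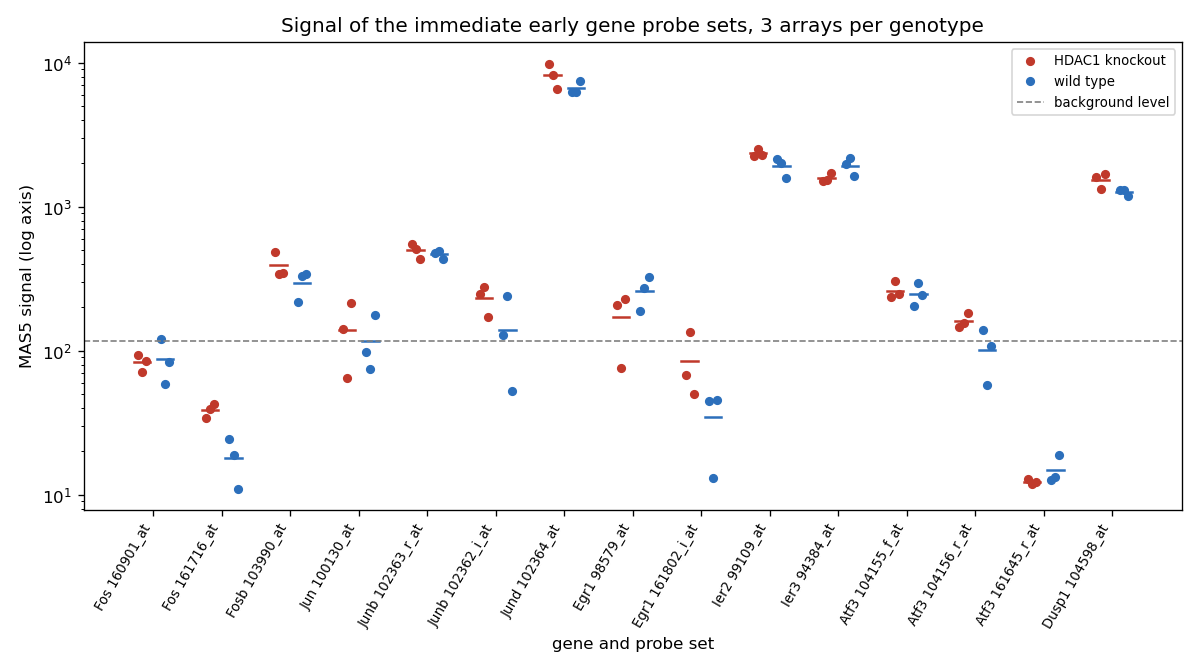
MAS5 signal on a log axis for the 15 probe sets of the 10 genes, with 1 point per array (3 HDAC1 knockout in red, 3 wild type in blue), a bar at each mean, and the background level of 116.4 as a dashed line. The points of the genotypes overlap for 10 of the 15 probe sets, and both Fos means lie under the dashed line.

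Among the Fos family, Fos itself lay at the background level. Fos is the AP-1 subunit that serves as the standard marker of a recent stimulus. Its brighter probe set, 160901_at, had signals of 92.9, 71.7 and 85.1 in knockout cells and 121.1, 58.3 and 83.3 in wild-type cells. Of these 6 values, 5 lay under the background level, a signal of 116.4 that stands for probe sets with no target in the sample. The second Fos probe set, 161716_at, had 34.2, 39.2 and 42.7 in knockout cells and 24.5, 18.8 and 11.0 in wild-type cells. Although the groups did not overlap, every value lay far under the background level, so no fold is given (adjusted p = 0.407 by limma).

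Fosb, a second Fos-family partner of the Jun proteins, was above background on all 6 arrays. Its signals were 486.2, 340.4 and 344.6 in knockout cells and 217.1, 331.3 and 342.6 in wild-type cells. Knockout replicate 1 was the highest array and wild type replicate 1 the lowest, while the other four lay between 331.3 and 344.6. The log2 difference was 0.38 ± 0.24 (adjusted p = 0.509 by limma), with a 95% interval of -0.14 to 0.91. It was 0.18 without wild type replicate 1 and 0.22 without knockout replicate 1.

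Jun, the founding Jun-family subunit of AP-1, stayed close to background. Its signals were 140.6, 64.8 and 213.0 in knockout cells and 97.6, 74.9 and 176.6 in wild-type cells. Replicate 3 was the highest and replicate 2 the lowest in either genotype, and the groups overlapped throughout. The wild-type mean of 116.4 ± 53.4 (SD, n = 3) was at the background level and the knockout mean was 139.5 ± 74.1, so no fold is given. The log2 difference of 0.18 ± 0.49 was smaller than the spread within the genotypes, 0.67 on the log2 scale, and turned negative without HDAC1 knockout replicate 3 (-0.16) or wild type replicate 2 (-0.05).

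Junb, a Jun-family member that in many settings restrains the activity of Jun, was above background in both genotypes. The probe set 102363_r_at had 547.1, 505.8 and 436.3 in knockout cells and 477.3, 493.7 and 434.3 in wild-type cells, largely interleaved. Its log2 difference was 0.08 ± 0.15 (adjusted p = 0.89 by limma), and the 95% interval of -0.26 to 0.41 ran from 0.835-fold to 1.33-fold. The other Junb probe set, 102362_i_at, varied more, with 247.0, 277.8 and 171.7 in knockout cells and 128.9, 238.1 and 52.4 in wild-type cells. Wild type replicate 3 lay under background, wild type replicate 2 within the knockout range, and the log2 difference of 0.84 ± 0.46 missed the threshold (adjusted p = 0.446). It was 0.35 without wild type replicate 3 and 1.29 without wild type replicate 2.

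Jund, the Jun-family member usually transcribed at a steady level without a stimulus, was far above background on every array. It had 9823.7, 8135.4 and 6546.0 in knockout cells and 6252.9, 6269.1 and 7416.5 in wild-type cells. Knockout replicates 1 and 2 were the highest arrays, and knockout replicate 3 lay between the wild-type arrays. The means were 8168.4 ± 1639.1 in knockout cells and 6646.2 ± 667.2 in wild-type cells (SD, n = 3 each), 1.22-fold apart on the fitted scale, with a log2 difference of 0.28 ± 0.14 and adjusted p = 0.365 by limma. The log2 difference was 0.14 without knockout replicate 1 (adjusted p = 0.713) and 0.43 without knockout replicate 3 (adjusted p = 0.128).

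Egr1, a zinc finger transcription factor induced by ERK signalling, was called on neither of its probe sets, and 1 of them lay at background. The probe set 98579_at had 206.2, 76.0 and 229.6 in knockout cells and 189.3, 271.8 and 324.0 in wild-type cells. Knockout replicate 2 alone was under background, and the other two knockout arrays lay within the wild-type range. The log2 difference was -0.67 ± 0.40 (adjusted p = 0.497 by limma), and without knockout replicate 2 it was -0.22. The second probe set, 161802_i_at, had 68.0, 134.6 and 50.2 in knockout cells and 45.1, 13.0 and 45.7 in wild-type cells, with 5 of the 6 arrays and both means under background, so it gives no direction for the gene.

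Ier2, a small nuclear protein induced by serum, had the smallest p of the 15 probe sets. Its signals were 2240.0, 2519.5 and 2264.8 in knockout cells and 2144.3, 1992.8 and 1583.9 in wild-type cells. Every knockout array was above every wild-type array, but the nearest pair, 2240.0 and 2144.3, differed by less than either group's SD. The means were 2341.4 ± 154.7 in knockout cells and 1907.0 ± 289.9 in wild-type cells (SD, n = 3 each), 1.23-fold apart (log2 difference 0.30 ± 0.12, adjusted p = 0.232 by limma). Without wild type replicate 3 the log2 difference was 0.18.

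Ier3, a membrane protein linked to cell survival and to prolonged ERK signalling, had a negative difference. It had 1496.6, 1518.9 and 1720.0 in knockout cells and 1983.9, 2158.9 and 1626.0 in wild-type cells. Wild type replicate 3 fell between the knockout arrays, so the groups overlapped. The means were 1578.5 ± 123.0 in knockout cells and 1922.9 ± 271.6 in wild-type cells (SD, n = 3 each), with a log2 difference of -0.28 ± 0.12 and adjusted p = 0.284 by limma. Without wild type replicate 3 the adjusted p was 0.0747, the lowest that any of the 15 probe sets reached under the alternatives tried.

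Atf3, a stress-induced member of the ATF and CREB family, was read by 3 probe sets. The brightest, 104155_f_at, whose suffix marks probes shared within a sequence family, had 234.2, 303.6 and 246.3 in knockout cells and 202.7, 294.6 and 241.9 in wild-type cells. Replicate 2 was the highest array of either genotype, and the log2 difference of 0.09 ± 0.24 was within the spread (adjusted p = 0.931 by limma). The probe set 104156_r_at had 145.5, 156.4 and 184.0 in knockout cells and 138.6, 57.9 and 107.4 in wild-type cells, without overlap. Its wild-type mean was at background. With the wild-type arrays under that level set to it, knockout cells were 1.27-fold higher, a value that leaves out the spread between arrays. There was no call (adjusted p = 0.492 by limma), and limma's 95% interval, with no array reset, ran from 0.861-fold to 2.9-fold and so took in no change. The log2 difference of this probe set, 0.66, was 0.36 without wild type replicate 2. The third, 161645_r_at, lay between 11.9 and 18.9 on all 6 arrays, under background in both genotypes.

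Dusp1, the phosphatase that inactivates p38, JNK and ERK after a stimulus, was higher on each knockout array than on any wild-type array. It had 1611.3, 1324.1 and 1671.2 in knockout cells and 1314.7, 1298.5 and 1177.3 in wild-type cells. Knockout replicate 2 and wild type replicate 1 were nearly level, and the other knockout arrays lay higher. The means were 1535.5 ± 185.5 in knockout cells and 1263.5 ± 75.1 in wild-type cells (SD, n = 3 each), 1.21-fold apart, with a log2 difference of 0.27 ± 0.11 and adjusted p = 0.263 by limma.

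**Figure D2:**
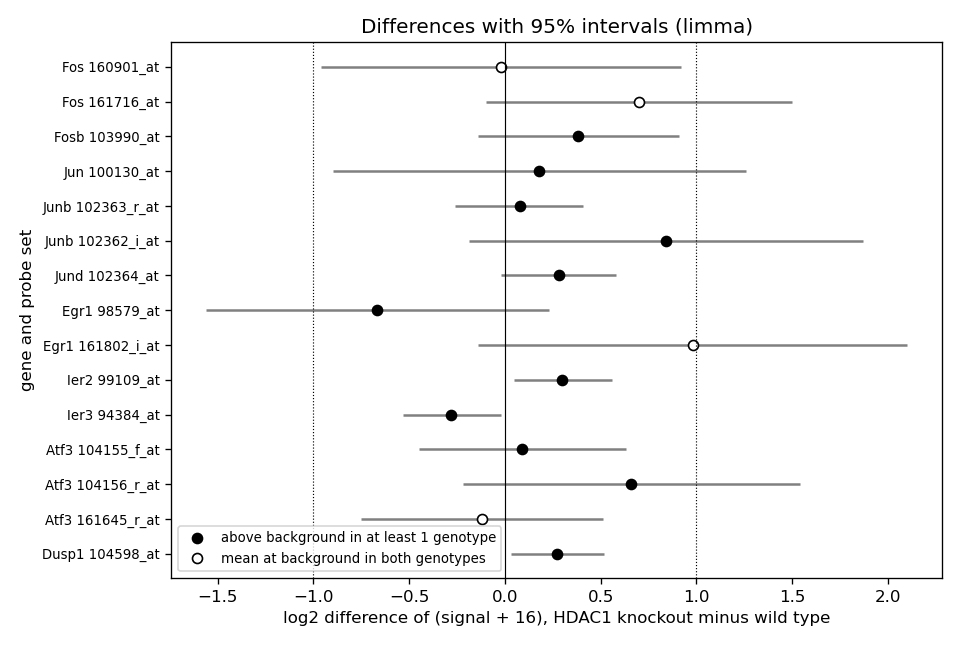
Log2 difference of (signal + 16), HDAC1 knockout minus wild type, for the 15 probe sets, with limma's 95% intervals as lines; open points had means at background in both genotypes and dotted lines mark a 2-fold difference. Among filled points, the intervals of Jund, Ier2, Ier3, Dusp1, Fosb, Junb 102363_r_at and Atf3 104155_f_at stay between the dotted lines, as do those of Fos 160901_at and Atf3 161645_r_at among open ones.

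How far a difference could have gone unseen varied among the genes. Of the 9 probe sets with both genotype means above background, 7 had a 95% interval that stayed within a 2-fold difference in either direction. For Dusp1 the interval ran from 1.02-fold to 1.43-fold, for Ier2 from 1.03-fold to 1.47-fold, for Ier3 from 0.692-fold to 0.987-fold and for Jund from -0.02 to 0.58 on the log2 scale. These intervals are not adjusted for the number of probe sets. The other 2, of Egr1 (98579_at) and Junb (102362_i_at), had intervals that took in a 2-fold difference. So did those of Jun and Atf3 104156_r_at, whose wild-type means were at background.

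The members differed in how much they varied within a genotype. The within-genotype SD of log2 signal was 0.13 for Junb 102363_r_at, 0.14 for Dusp1 and 0.17 each for Ier2 and Ier3, at or under the median of 0.21 over probe sets above background. For Jun it was 0.67 and for Egr1 0.61, higher than in 93.5% and 92.0% of probe sets above background. The Jun arrays lay around the background level, and 1 array each of Egr1 98579_at and Junb 102362_i_at lay under it. Whether noise of dim signals makes up this spread was not tested. No array was high for all genes: the highest array was a knockout one for 7 of the 10 brightest probe sets, 3 of them in replicate 1, and a wild-type one for 3. Averaged over the 10, the deviation of log2 signal from the mean of the 6 arrays was 0.15, -0.16 and 0.11 in knockout replicates 1, 2 and 3, and -0.08, -0.04 and 0.03 in wild-type replicates 1, 2 and 3. Knockout replicate 2, which was lowest for Jun and Egr1, thus lay under every wild-type array in this average.

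**Figure D3:**
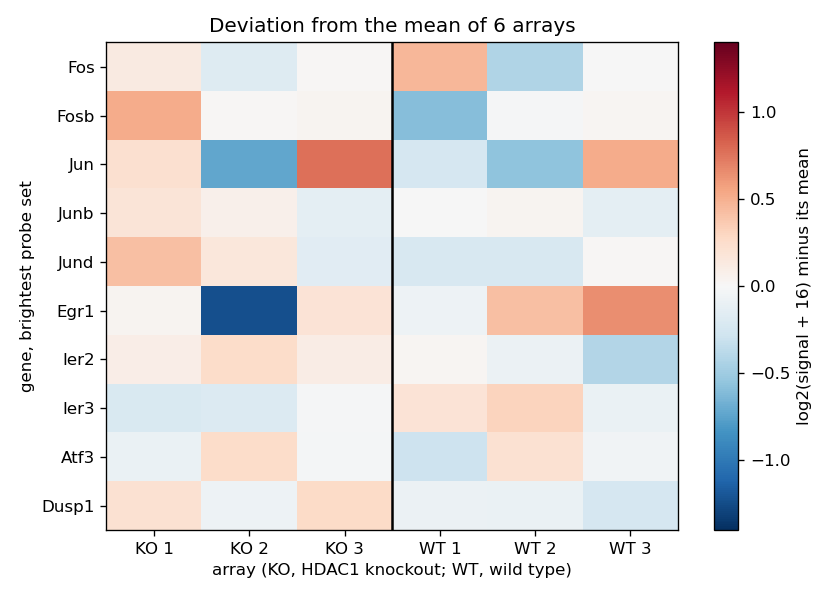
Log2(signal + 16) minus its mean over the 6 arrays, for the brightest probe set of each gene (rows) in each array (columns, KO for HDAC1 knockout and WT for wild type). Rows differ in which array is high, and the deepest blue is Egr1 in knockout replicate 2.

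Other genes whose values over the 6 arrays ran closest to those of a member were sought as the smallest root mean square difference between mean-centred log2 signals, among probe sets above background. For Dusp1 these were Uqcrb (0.06), Selenos (0.07) and Cst3 (0.07). For Egr1 they were Abhd14a (0.13), Dcp1a (0.19) and Lta (0.19), and for Jun, with wider distances, Emid1 (0.20), Ift27 (0.27) and Prcc (0.27). For Fos, which is itself at background, Ubxn6 (0.07), Eipr1 (0.08) and Terf1 (0.09) came closest. None of these 12 neighbours was itself called between the genotypes. They were picked for closeness to members without a call, so this adds nothing. No other immediate early gene was among the neighbours.

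A wider set of immediate and delayed early genes did hold calls. Of 33 measured genes, 7 fell and 2 rose, with a median log2 difference of -0.26. This made 27.3% called, against 4.58% of all genes by their brightest probe set. The shares are not matched for signal: 29 of the 33 lay above background, against 5684 of all 8251 genes. Without the dimmest 50% of probe sets, 9 of 26 listed genes were called, against 611 of 6211 probe sets. The list was also chosen with earlier results of these data known. Ccn2, which encodes connective tissue growth factor, a secreted matricellular protein, had 218.5, 175.9 and 229.8 in knockout cells and 743.6, 638.7 and 512.2 in wild-type cells, 2.87-fold lower (log2 difference -1.52 ± 0.20, adjusted p = 0.00187 by limma). The kinase gene Pim1, a target of STAT signalling, had 3316.7, 3232.0 and 3215.7 in knockout cells and 5257.2, 5190.3 and 5437.4 in wild-type cells, 1.62-fold lower. The chemokine genes Ccl2 and Cxcl1 fell 1.71-fold and 1.64-fold, and the polo-like kinase gene Plk2 1.65-fold. Klf10, a TGF-beta-inducible Kruppel-like factor, was the rise with the smallest p, with 1956.6, 1619.5 and 1667.1 in knockout cells and 1198.2, 1036.8 and 1125.7 in wild-type cells, 1.55-fold higher. The remaining calls, named after their values were seen, were Socs3, the feedback inhibitor of cytokine signalling, 1.51-fold higher, the survival gene Mcl1, 1.36-fold lower, and the GTPase gene Rhob, 1.41-fold lower.

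For all 9 called genes the arrays of the genotypes did not overlap, as for 20.6% of all probe sets. The calls came from the same arrays, so this adds nothing to them. With eBayes without a trend, Ccn2 was the 1 gene still called. Mcl1 and Rhob lost their calls after median centring, with the replicate number as a block and with 4 and 5 of the 6 single arrays left out, and Socs3 with 3 of the 6. In the same arrays 5 of the 24 feeder fibroblast markers were called lower and 0 higher, with a median log2 difference of -0.40. This made 20.8% called, against 4.58% of all genes. Tagln, Col1a1 and Acta2 were 4.15-fold, 2.11-fold and 2.47-fold lower. Col1a2, Fn1 and Sparc had log2 differences of 0.04, 0.05 and 0.46, without a call. The part of feeder cells in the falls was not tested. Whether the 10 genes and this wider set differ in their response to the loss of HDAC1 was not tested either.

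**Figure D4:**
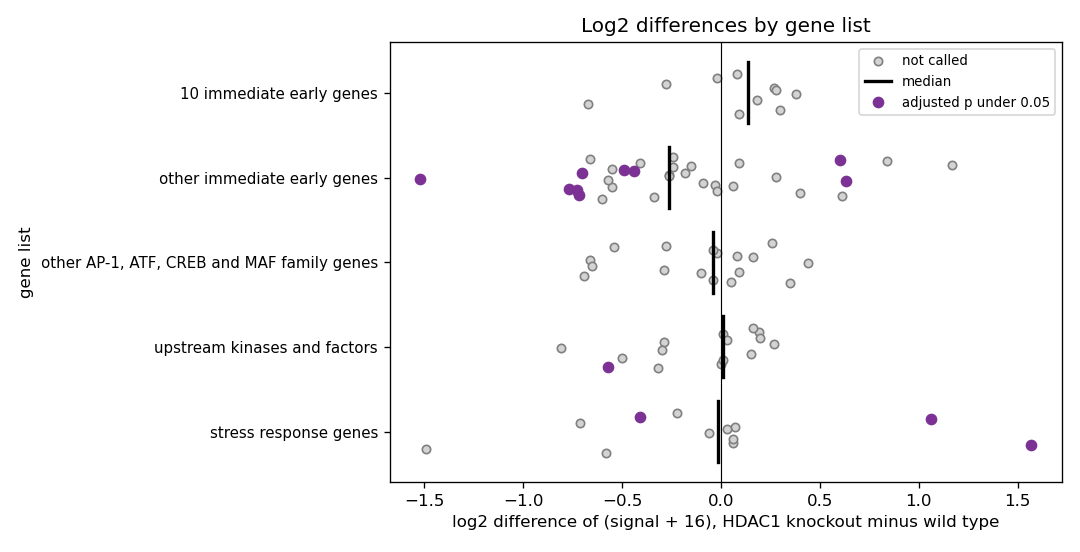
Log2 difference of (signal + 16), HDAC1 knockout minus wild type, by gene list, with 1 point per gene from its brightest probe set, filled purple where the adjusted p was under 0.05, and a bar at each list's median. The 10 immediate early genes have no purple point and a median of 0.13, while the wider list has 9 and a median of -0.26.

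Relatives of the AP-1 subunits had no call. Of 17 measured genes of the AP-1, ATF, CREB and MAF families, limma called 0, where 4.58% of all genes were called. At an unadjusted p under 0.05 there were 3, where 17.1% of all genes passed. The median log2 difference of the 17 was -0.04. Atf2, a partner of Jun, had 1253.6, 1236.9 and 1234.8 in knockout cells and 1055.6, 866.3 and 996.4 in wild-type cells, without overlap (adjusted p = 0.111). Fosl1, the Fos-family member also called Fra1 and also counted in the wider set above, had 285.8, 202.7 and 312.9 in knockout cells and 452.2, 416.0 and 403.4 in wild-type cells (log2 difference -0.66 ± 0.21, adjusted p = 0.143). Nfe2l2, which encodes the antioxidant regulator NRF2, had a log2 difference of -0.28 ± 0.11 (adjusted p = 0.269).

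Among 15 measured kinases and factors that act upstream, 1 fell and 0 rose (6.67% called, against 4.58% of all genes). Their median log2 difference was 0.01. Nras, a RAS GTPase at the head of the ERK cascade, had 1721.2, 1584.1 and 1771.3 in knockout cells and 2247.4, 2543.0 and 2762.5 in wild-type cells, 1.48-fold lower (adjusted p = 0.00869 by limma). The call was lost without knockout replicate 2 (adjusted p = 0.0567) and with eBayes without a trend (adjusted p = 0.193).

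Stress response genes, which handling of cells can raise along with Fos and Atf3, had 3 calls. Of 12 measured, 2 rose and 1 fell (25% called, against 4.58% of all genes). Of the 12, 11 lay above background, so these shares are not matched for signal either. The metallothionein genes Mt1 and Mt2 rose 2.97-fold and 2.09-fold, with 7079.0, 6507.9 and 7412.8 in knockout cells and 2139.0, 2595.9 and 2309.7 in wild-type cells for Mt1. The heme oxygenase gene Hmox1 fell 1.33-fold (adjusted p = 0.0378 by limma), a call lost in 7 of the 16 alternatives, which left the list with no lower call. The remaining 9 were not called, and the list's median log2 difference was -0.02. At an unadjusted p under 0.05 by limma, 2 of the 12 were higher and 4 lower, where 17.1% of all genes passed. Besides Hmox1, the lower ones were Hspa1b (log2 difference -0.71), Ddit3 (-0.58) and Hspa1a, named after their values were seen. The knockout mean of Hspa1a lay under background.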

How the data were processed

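The authors deposited MAS5 signal intensity per probe set, with 1 array (MG U74Av2) per sample, according to the submitters' processing notes. The MAS5 version is not given in the sources used here, and no detection calls were used. With 2% trimmed from either end, the mean signal came to 500.3 for each of the 6 arrays, so the intensities were taken as already scaled. Such scaling hides a change of all transcripts in 1 direction. The arrays' experiment headers were identical and name no batch.

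Of 12488 probe sets, 66 controls were left out. Gene names come from the platform annotation, updated by identifier through a RefSeq table (GRCm38.p6). The fit used limma 3.58.1 (R 4.3.3, eBayes with a trend) on log2(signal + 16), HDAC1 knockout minus wild type, over all 12422 probe sets with Benjamini-Hochberg adjustment and a threshold of 0.05. Folds are on this scale and are too small for dim probe sets. The background level of 116.4 is the upper end (percentile 95) of 19 bacterial and yeast control probe sets, and 39.2% of tested probe sets had a mean at or under it. Where 1 group's mean was at background, its arrays under that level were set to it. The fold is then a bound with regard to the background level only, and does not take in the spread between arrays. For list counts, the brightest probe set stood for its gene.

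Members and lists were chosen with earlier results of these data known. Genes of the other lists were named as the called ones, up to 6 by smallest p, or else the 3 with the smallest p. The number of arrays limits the precision. Same-numbered arrays did not deviate together (correlations -0.0526, -0.0116 and -0.0835 over 7548 probe sets above background), so the numbers were not taken as pairs. The fit was also run on simulated data with known changes. Their spread was drawn from the eBayes trend itself, so that run cannot show whether the trend suits these arrays.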

Additional observations from a re-analysis of the deposited data

How the results depend on the processing

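The count of 0 called among the 15 immediate early gene probe sets held under all alternatives: pseudocounts of 1 and 64, quantile normalization, median centring, filters that dropped the dimmest 25% or 50% of probe sets (which left 13 and 8 of the 15), other eBayes settings, array weights, the replicate block and each array left out. Signs turned for 3 dim or small differences: Fos 160901_at was 0.07 with quantile normalization, 0.06 with median centring, 0.06 without HDAC1 knockout replicate 2 and 0.20 without wild type replicate 1 (-0.24 to 0.20 over single arrays left out); Jun was -0.16 without HDAC1 knockout replicate 3 and -0.05 without wild type replicate 2 (-0.16 to 0.59); Atf3 104155_f_at was -0.02 without HDAC1 knockout replicate 2 and -0.04 without wild type replicate 1 (-0.04 to 0.22). The count over all probe sets, 482, was 132 with eBayes without a trend and 319 with the replicate block. In this balanced design the block cannot change a log2 difference, only its error. With single arrays left out the count was 248 to 420. It moved by over 1.5 times without any 1 of the knockout replicates or without wild type replicate 1. With eBayes without a trend the wider early gene list had 1 call and the upstream list 0, and without HDAC1 knockout replicate 2 the upstream list also had 0. Median centring moved the median difference of all probe sets from -0.041 to 0.037. Of the lists, the replicate block left 7 of 9 calls in the wider early gene list and 2 of 3 in the stress list. Signals close to background limit what can be said of Fos, Jun and the second probe sets of Egr1 and Atf3.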
